A study of Mus musculus with 6 samples.

Results

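A set of 10 genes, grouped here as partners of the transcription factor MECOM, encodes co-repressors and histone-modifying enzymes. Their transcripts were compared between wild-type and Mecom-mutant blood stem cells, and binding of their proteins to MECOM was not tested. The genes are Ctbp1, Ctbp2, Suv39h1, Ehmt1, Ehmt2, Hdac1, Hdac2, Kdm1a, Rcor1 and Cbfa2t3. They were chosen by symbol, with earlier results of these data known, and all 10 of 10 were present among the 18465 genes of the expression table.

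MECOM, whose shorter form is known as EVI1, is a zinc finger protein that is needed for the upkeep of haematopoietic stem cells. EVI1 binds the C-terminal binding proteins CTBP1 and CTBP2, which hold no DNA-binding domain of their own and join sequence-specific factors to chromatin enzymes. Among those enzymes are the deacetylases HDAC1 and HDAC2, the H3K4 demethylase LSD1 (Kdm1a) with its scaffold CoREST (Rcor1), and the H3K9 methyltransferases G9a (Ehmt2) and GLP (Ehmt1). SUV39H1, which sets the trimethyl mark of H3K9 in constitutive heterochromatin, has also been reported to bind EVI1. Cbfa2t3 encodes ETO2, a co-repressor of the ETO family that works in the TAL1, LMO2 and LDB1 complex of stem cells and erythroid precursors.

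RNA came from SLAM-LSK cells of C57BL/6 mouse bone marrow, which were sorted as negative for lineage markers and CD48 and positive for Sca-1, c-Kit and CD150. The WT group held 3 libraries of wild-type mice, and the MecomWT:R751W group, called mutant here, 3 libraries of mice with 1 R751W allele and 1 wild-type allele of Mecom. Neither ages, treatments nor pooling of mice are stated in the labels, and although the titles call the libraries biological replicates, no label ties each to a different mouse. The p-values cover the spread between libraries. The comparison asks whether the altered allele goes with other levels of these transcripts in stem cells.

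Levels are given as TPM, which are reads divided by a length for the gene and scaled to 1000000 in each library. Whole reads could be recovered from the ratios of TPM between libraries, and these implied reads summed to between 10427533 and 12378149 per library. The 10 genes had between 291 and 3651 implied reads in a library. Protein-coding genes took 25.9% to 30.1% of TPM, with the lowest shares in replicate 2 of WT (25.9%) and replicate 2 of MecomWT:R751W (26.0%). The stem cell genes that the sort rests on were present, with Kit at 138 to 198 TPM. Slamf1, which encodes CD150, was at 9.50 to 16.5 TPM and Ly6a, which encodes Sca-1, at 8.64 to 13.2 TPM. Cd48, which the gate selects against, was at 1.02 to 2.18 TPM in WT against 2.27 to 4.10 TPM in the mutant libraries. Of 6 markers of T and NK cells, Nkg7 and Thy1 were measured and summed to 5.77 to 6.28 TPM in WT against 12.7 to 15.9 TPM in the mutant. The defining T cell genes Cd3e, Cd3g and Cd8a were not analysed here. Of 6 erythroid markers, 5 were measured, with sums of 8.28 to 13.1 TPM in WT libraries and 15.5 to 26.1 TPM in mutant ones. Car1 alone was at 8.93 TPM in mutant replicate 2. Cd48 had 15 to 59 implied reads in a library, Nkg7 26 to 78 and Thy1 14 to 53. The 5 megakaryocyte and platelet markers measured summed to 123 to 145 TPM in WT against 110 to 163 TPM in the mutant. For 3 neutrophil and monocyte markers the sums were 11.85 to 13.7 TPM in WT against 10.1 to 12.9 TPM in the mutant. Whether these transcripts came from other cells was not tested, nor was any part of such cells in the values below.

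In replicates 1, 2 and 3, in this order here and below, Mecom itself was read at 42.9, 34.9 and 36.9 TPM in WT against 50.9, 39.95 and 44.0 TPM in the mutant. The ranges overlapped, and a gene total does not separate the 2 alleles. The log2 fold change of 0.23 (SE 0.14) became 0.14 without MecomWT:R751W replicate 1, where the median of all genes moved from -0.004 to -0.031.

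None of the 10 partner genes passed the test between genotypes. With limma on log2(TPM + 1), 0 of 10 reached an adjusted p of 0.05, where 0 of 16655 genes tested did (0%). At an unadjusted p under 0.05 the count was 0 of 10, beside 5.97% of all genes, and limma-voom on the implied reads also called 0 of 10, beside 0.3% of all genes. Over protein-coding rows alone limma called 0 of 10 too, beside 1.16% of 11394 genes. The fold changes of MecomWT:R751W over WT were positive for 6 genes and negative for 4, with a median of 0.01 on the log2 scale, where the median of all genes tested was -0.0037. For 8 of 10 the log2 fold change lay within 0.1 of 0, as it did for 45.1% of all genes. That share takes in rows down to a mean of 1 TPM, whereas the 10 genes average 10.2 TPM or more, so the levels are unlike. Over the 10 genes, the lowest bound of a 95% interval was a fold of 0.674 (Hdac1) and the highest a fold of 1.32 (Suv39h1), and each gene's own interval was narrower than that span. The standard errors of 0.124 to 0.161 (log2) became 0.064 to 0.116 with TPM rescaled to the protein-coding total, where the smallest adjusted p of the 10 was 0.387 (Hdac1). In such bulk samples fewer cells with a transcript and less of it per cell cannot be told apart.

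**Figure D1:**
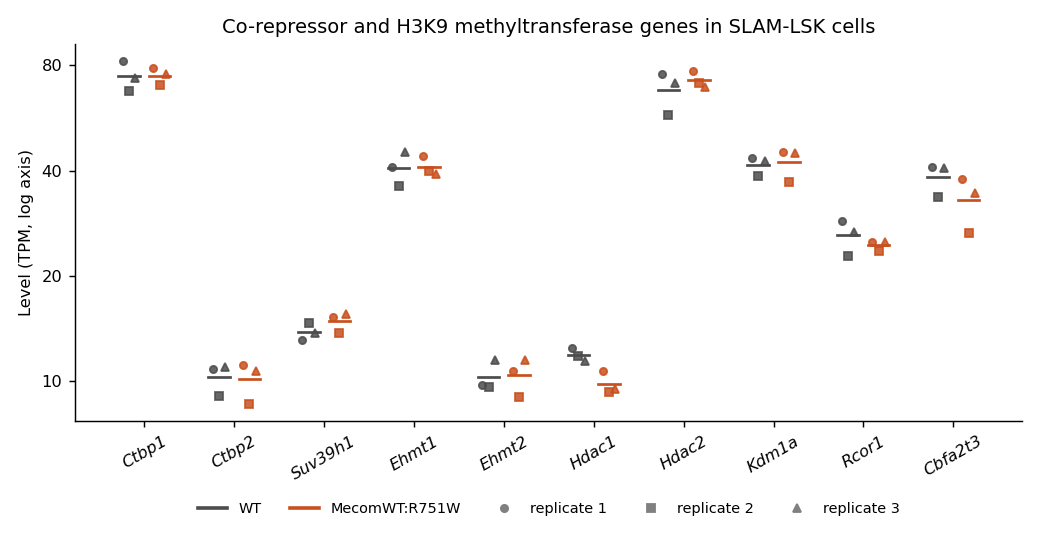
Level of each of the 10 genes in every library, in TPM on a log axis, with WT in grey, MecomWT:R751W in orange, a symbol for each replicate number and a bar at the mean of 3 libraries. The groups overlap in 9 of 10 genes, and the Hdac1 row is the exception.

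The CtBP genes, the bridge between MECOM and the enzymes, differed between genotypes by less than their spread. Ctbp1 (chr5:33247723-33275004, minus strand, GRCm38) was at 82.3, 67.7 and 73.5 TPM in WT against 78.7, 70.3 and 75.6 TPM in the mutant. All 3 mutant values lay inside the WT range. The means were 74.5 ± 7.37 and 74.8 ± 4.23 TPM (SD, n = 3 each), and the fold change had a 95% interval of 0.835 to 1.21. Ctbp2 (chr7:132986998-133124009, minus strand) was at 10.8, 9.02 and 10.9 TPM in WT against 11.1, 8.58 and 10.6 TPM in the mutant. In both groups replicate 2 was the lowest and the other two were close together. Its log2 fold change was -0.02 (SE 0.16), with an interval of 0.773 to 1.25 for the fold.

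Of the H3K9 methyltransferases, Suv39h1 (chrX:8061171-8074760, minus strand) had the largest difference between group means on the log2 scale. It was at 13.0, 14.6 and 13.7 TPM in WT against 15.2, 13.7 and 15.5 TPM in the mutant. Replicate 2 of the mutant lay among the WT values, and the log2 fold change of 0.10 (SE 0.14) allowed folds of 0.866 to 1.32. Its paralog Suv39h2 was lower, at 3.59 ± 0.593 TPM in WT against 3.69 ± 0.954 TPM in the mutant. Ehmt1 (chr2:24790769-24919643, minus strand) was at 41.0, 36.2 and 45.1 TPM in WT against 44.0, 39.8 and 39.0 TPM in the mutant. Its means of 40.8 ± 4.48 and 40.9 ± 2.71 TPM differed by far less than the spread. Ehmt2 (chr17:34898463-34914073), the partner of Ehmt1 in the G9a and GLP heterodimer, was at 9.73, 9.57 and 11.4 TPM in WT against 10.6, 8.97 and 11.5 TPM in the mutant. The ranges again coincided, and the log2 fold change was 0.01 (SE 0.16).

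Hdac1 (chr4:129516104-129542646, minus strand) was the one partner gene whose groups did not overlap, which 9.19% of all genes tested also showed and 4.7% in the same direction. Its row stood at 12.4, 11.8 and 11.4 TPM in WT against 10.7, 9.26 and 9.44 TPM in the mutant. Every mutant library lay under every WT library. With limma the row had a log2 fold change of -0.25 (SE 0.15, adjusted p = 0.945), and the interval for the fold ran from 0.674 to 1.04. Hdac2 (chr10:36974297-37001889), its paralog in the same complexes, was at 75.9, 57.8 and 71.1 TPM in WT against 77.1, 71.4 and 69.6 TPM in the mutant. Those ranges overlapped, with a log2 fold change of 0.10 (SE 0.13).

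The Hdac1 row cannot be read alone, because a near-identical copy of its messenger RNA has a row of its own with more reads. Hdac1-ps is a processed pseudogene, an intronless copy of the Hdac1 messenger RNA, at chr17:78491565-78493541 on the plus strand. It was singled out after its values were seen. Over the 1444 bases of the Hdac1 coding sequence that align with it there were 9 substitutions and 0 gaps, an identity of 99.4%. Of all stretches of 100 bases in the coding sequence, 67% held no difference, so a read of that length from them fits both places equally. Counted from 1 at the A of the Hdac1 start codon, the substitutions were G342A, C408T, T441A, A460G, C465T, C472T, T482C, T719C and C1170A, with the base of Hdac1 first. The 150 coding bases 333 to 482 hold 7 of the 9, and they are shown because no other 150 coding bases hold more. Only the coding sequence of Hdac1 was compared in this way. The Hdac1 stretch is the spliced sequence of exons 4 and 5, within chr4:129522975-129524268, and that of the copy is chr17:78491914-78492063, both from GENCODE M21 transcripts on GRCm38, with the differing bases in capitals.
Hdac1: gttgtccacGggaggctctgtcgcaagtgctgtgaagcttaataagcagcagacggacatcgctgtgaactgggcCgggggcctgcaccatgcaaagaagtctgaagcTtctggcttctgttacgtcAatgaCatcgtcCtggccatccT
Hdac1-ps: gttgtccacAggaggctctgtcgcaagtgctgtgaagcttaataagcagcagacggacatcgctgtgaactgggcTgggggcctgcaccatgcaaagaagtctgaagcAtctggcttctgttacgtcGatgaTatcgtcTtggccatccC
Outside this stretch, 2 substitutions remain in the whole coding sequence.

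The pseudogene row held more reads than the gene row in every library. Hdac1-ps had 1002, 956 and 1168 implied reads in WT and 1038, 1100 and 1047 in MecomWT:R751W, where the Hdac1 row had 367, 381 and 385 reads and 303, 291 and 313 reads. A further copy, Gm4864, which is 94.5% identical over 1469 bases, had 11 to 19 reads. Other matches were AC125456.1 (96.3% identical over 1450 bases) and Gm21834 (90.1% over 453 bases). Both were not analysed here and are not part of the sums. The Hdac1 row held 24.6% to 28.2% of the reads of the 3 rows together in WT and 20.7% to 22.7% in MecomWT:R751W. That share was lower in all 3 mutant libraries (exact two-sided permutation p = 0.1, the smallest that 3 against 3 allow).

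Summed over the 3 rows, the genotypes overlapped. The sums were 123, 124 and 126 reads per 1000000 in WT and 127, 134 and 112 in MecomWT:R751W. The mutant values lay on both sides of the WT values. Entered as 1 row per kilobase of the principal Hdac1 transcript, the sum gave 86.9 ± 5.47 TPM in WT against 86.4 ± 5.95 TPM in the mutant (SD, n = 3 each), a log2 fold change of -0.01 (SE 0.12, limma adjusted p = 1) with an interval of 0.829 to 1.19 for the fold. This sum was added after the data were seen. How reads with more than 1 matching place were assigned could not be taken from the sources used here, so the true share of Hdac1 in the sum was not tested.

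**Figure D2:**
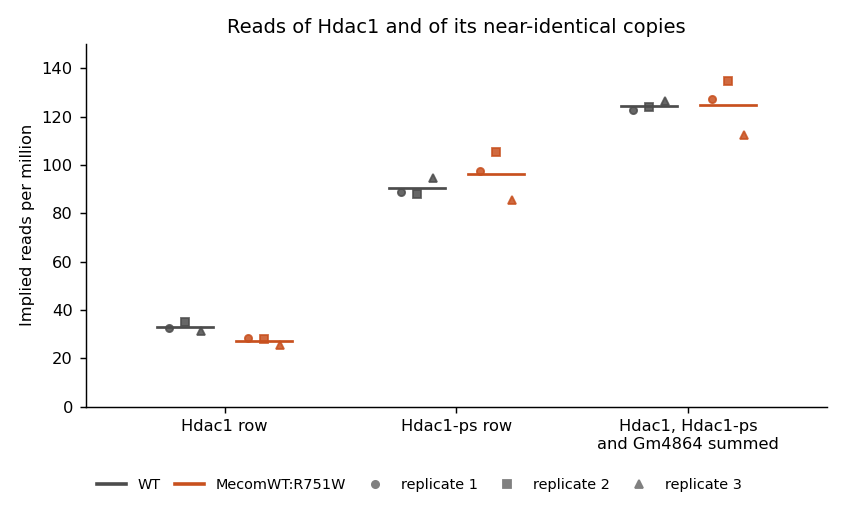
Implied reads per 1000000 in each library (y axis, from 0) for the Hdac1 row, the Hdac1-ps row and the sum of Hdac1, Hdac1-ps and Gm4864, with WT in grey, MecomWT:R751W in orange and bars at the means. The groups are separate in the Hdac1 row, with no overlap, and overlap in the sum, where WT lies at 123 to 126 and MecomWT:R751W at 112 to 134.

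The demethylase and its scaffold differed by less than their spread. Kdm1a (chr4:136550533-136602787, minus strand), which removes methyl groups from H3K4 in the CoREST complex, was at 43.4, 38.7 and 42.5 TPM in WT against 45.2, 37.0 and 44.9 TPM in the mutant. The widest gap was between replicate 2 and the other replicates, in both groups. The log2 fold change was 0.03 (SE 0.13), with folds of 0.836 to 1.24 allowed. Rcor1 (chr12:111039367-111115902, plus strand), the scaffold that ties LSD1 to HDAC1 and HDAC2, was at 28.8, 22.7 and 26.7 TPM in WT against 25.0, 23.6 and 25.0 TPM in the mutant. The mutant values were close together and lay within the WT range. Its paralog Rcor2 was at 9.47, 9.61 and 8.92 TPM in WT against 7.89, 7.58 and 6.90 TPM in the mutant. Those groups did not overlap, with a log2 fold change of -0.29 (SE 0.15, limma adjusted p = 0.919). The ratio of Rcor1 over Rcor2, a pair added after the data were seen, was 3.04, 2.36 and 3.00 in WT and 3.17, 3.11 and 3.63 in MecomWT:R751W. Every mutant ratio lay above every WT ratio, with a log2 difference of 0.24 (SE 0.14, exact two-sided permutation p = 0.1, the smallest possible). Rcor3 was at 5.73 ± 0.982 and 5.64 ± 0.512 TPM, and Kdm1b, the paralog of Kdm1a that acts over gene bodies, at 7.34 ± 0.539 and 7.49 ± 0.995 TPM.

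Cbfa2t3 (chr8:122625136-122699332, minus strand) had the second most negative difference of the 10. It was at 40.9, 33.6 and 40.6 TPM in WT against 37.9, 26.4 and 34.4 TPM in the mutant. The ranges overlapped, and replicate 2 was the lowest in both groups. The log2 fold change of -0.23 (SE 0.15) became -0.08 without MecomWT:R751W replicate 2, where the median of all genes moved from -0.004 to 0.053. The smallest adjusted p that any of the 10 genes reached in 21 other settings was that of Cbfa2t3, 0.176, with limma-voom on the implied reads of protein-coding rows. Its paralog Cbfa2t2 was at 11.7 ± 1.32 TPM in WT against 10.9 ± 0.905 TPM in the mutant. Cbfa2t2 has a processed copy too, Cbfa2t2-ps1, 99.5% identical over 722 bases, whose row stood at 12.8 ± 0.488 and 11.2 ± 1.32 TPM.

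The remaining ETO gene, Runx1t1, was at a low level by TPM and was left out of the main test by its mean under 1 TPM. That mean depends on the length used, which was 17570 bases, where its principal transcript has 3317. Runx1t1 had 72, 91 and 137 implied reads in WT and 18, 22 and 66 in MecomWT:R751W. The highest mutant library lay under the lowest WT library, at 5.38 against 6.37 reads per 1000000. The means were 8.60 ± 2.36 and 3.06 ± 2.02 reads per 1000000 (exact two-sided permutation p = 0.1, the smallest possible). With limma on log2(TPM + 1) and no filter on low values, the log2 fold change was -0.44 (SE 0.15, adjusted p = 0.624), in a fit that called 0 of 18465 genes. With limma-voom and no such filter, added after the data were seen, the log2 fold change was -1.59 (SE 0.38, adjusted p = 0.089), in a fit that called 27 higher and 31 lower of 18465 genes.

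Much of the spread within a genotype was shared by the genes. Replicate 2 was the lowest WT library for 8 of the 10 genes and the lowest mutant library for 8 of 10. In the same order of replicates, the mean log2 level of the 10 was 4.83, 4.66 and 4.83 in WT against 4.83, 4.61 and 4.77 in the mutant. These means followed the log2 share of TPM in protein-coding genes, with Pearson's r = 0.966 over 6 libraries, as a description of values that share the scaling of each library. When TPM was rescaled to the protein-coding total, the median coefficient of variation within a group went from 10.02% to 5.68%. The protein-coding genes whose profile over the 6 libraries was most like the mean of the 10, of 8317 ranked, were Ppp1r21 (r = 0.998), Kmt2c (r = 0.996) and Kat6b (r = 0.996). Kmt2c and Kat6b encode a histone methyltransferase and a histone acetyltransferase. The likeness is over 6 libraries that share these scaling factors.

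The order of the levels depended on the length by which reads were divided. By TPM, averaged over 6 libraries, Ctbp1 (74.7) and Hdac2 (70.5) were highest and did not differ beyond their ranges. Kdm1a (41.9), Ehmt1 (40.9), Cbfa2t3 (35.7) and Rcor1 (25.3) followed, each overlapping the next, and Suv39h1 (14.3) lay apart from both neighbours. Hdac1 (10.8), Ehmt2 (10.3) and Ctbp2 (10.2) were lowest and overlapped. The lengths implied by the authors' TPM were longer than the principal GENCODE transcript for several genes. Ehmt2 was divided by 16516 bases, where its principal transcript has 4026 and its whole RefSeq span, introns included, 15611. For Ctbp2 the lengths were 5896 and 2321 bases, for Rcor1 5669 and 2720, and for Hdac1 3945 and 2038, whereas Ehmt1 (5676 and 5953) and Kdm1a (3151 and 3008) were close. Among the paralogs, Hdac8 (19000 and 1936), Rcor3 (9163 and 1578) and Runx1t1 (17570 and 3317) were farther apart in ratio than Ehmt2.

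Per kilobase of the principal transcript and per 1000000 implied reads, Ehmt2 left the lowest 3 and Suv39h1 joined Ctbp2 and Hdac1 there. Hdac2 (67.2) and Ctbp1 (57.3) were still the top pair. Rcor1 (37.1), Cbfa2t3 (34.2), Kdm1a (30.9), Ehmt2 (29.7) and Ehmt1 (27.5) formed the middle, each overlapping the next. Ctbp2 (18.2), Hdac1 (14.8) and Suv39h1 (13.5) were lowest. With its copies added, Hdac1 would stand at 61.1 on this scale, with a range of 55.1 to 66.0 that overlaps those of Hdac2 and Ctbp1. The paralogs Hdac8 and Rcor3 would stand at 41.1 and 23.2. Which of these lengths fits the RNA in these cells was not tested. Apart from the pseudocount, fold changes between genotypes do not depend on this length.

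**Figure D3:**
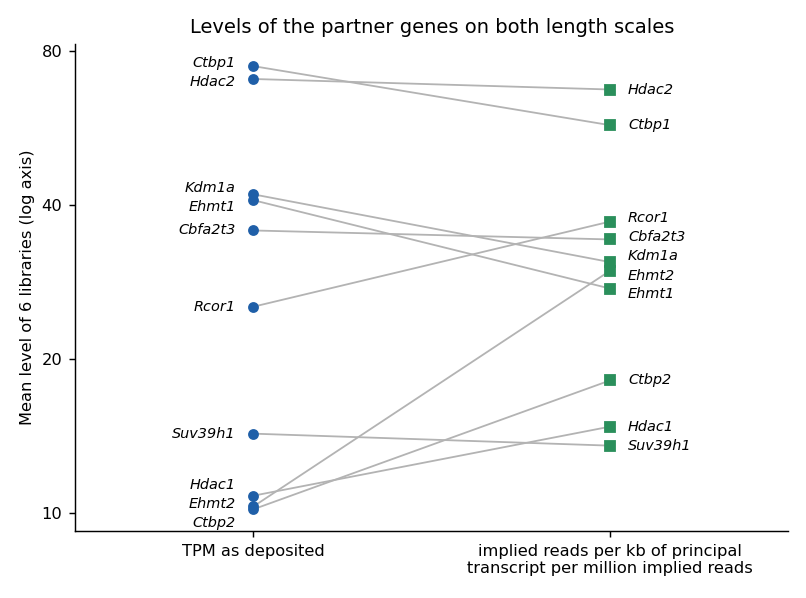
Mean level of the 10 genes over 6 libraries on 2 scales, TPM as deposited (left) and implied reads per kilobase of the principal transcript per 1000000 implied reads (right), on a log axis, with a line joining each gene. The Ehmt2 line is the steepest, from 10.3 on the left to 29.7 on the right. The scales differ in their denominator too, so the Kdm1a line falls from 41.9 to 30.9 although its lengths are close.

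Ratios of paralogs within a library are free of a scaling factor per library, and 7 planned pairs were compared between genotypes, with Rcor1 set against Rcor3. Hdac1 over Hdac2 was lower in all 3 mutant libraries, with log2 ratios of -2.61, -2.30 and -2.65 in WT and -2.86, -2.95 and -2.88 in MecomWT:R751W. The difference of -0.38 (SE 0.12) had an exact two-sided permutation p of 0.1, the smallest possible, and 0.7 after Benjamini-Hochberg adjustment over 7 pairs. With the copies added to Hdac1 the difference was -0.11 (SE 0.07, exact permutation p = 0.3). In the other 6 of these pairs the genotypes overlapped. Ctbp1 over Ctbp2 differed by 0.04 (SE 0.09) on the log2 scale, Ehmt1 over Ehmt2 by -0.00 (SE 0.12), Suv39h1 over Suv39h2 by 0.08 (SE 0.26), Cbfa2t3 over Cbfa2t2 by -0.13 (SE 0.12), Rcor1 over Rcor3 by -0.07 (SE 0.11) and Kdm1a over Kdm1b by 0.00 (SE 0.10). Ctbp1 was 7.27 times the level of Ctbp2 in WT by TPM and 3.12 times by the principal transcripts. Ehmt1 was 3.98 times Ehmt2 by TPM, but 0.924 times on the other scale.

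**Figure D4:**
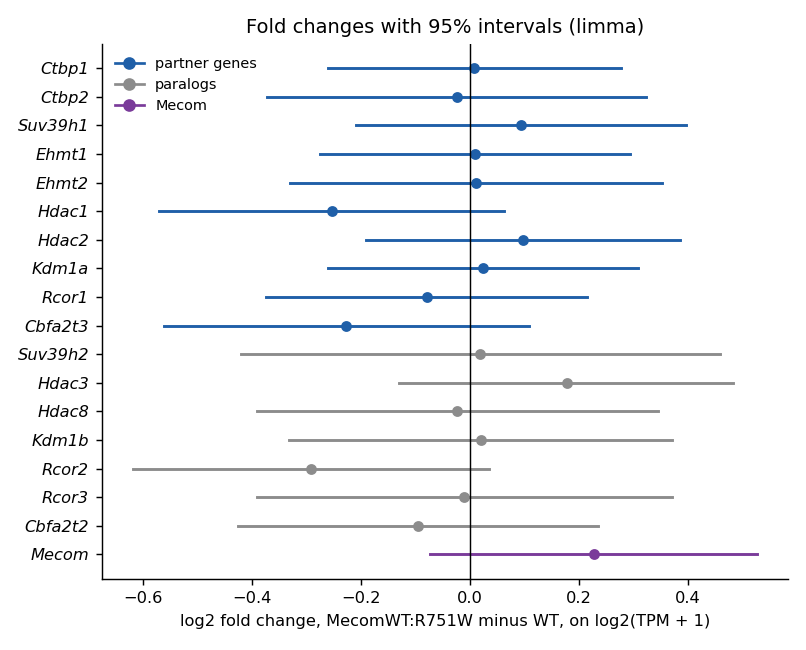
Log2 fold change of MecomWT:R751W over WT on log2(TPM + 1) for the 10 genes (blue), their 7 tested paralogs (grey) and Mecom (purple), as points with 95% intervals from limma. All intervals cross 0, and Hdac1 (-0.25) and Cbfa2t3 (-0.23) lie farthest from it among the 10.

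Other subunits of the complexes were described by lists, chosen with earlier results of these data known. Limma called 0 members of each of the 10 lists, where 0% of all genes were called. The median of every list took both signs as 1 library or another was left out. The median of all genes moved as well, to -0.065 without WT replicate 2 and to 0.053 without MecomWT:R751W replicate 2. The change of sign is thus not particular to the lists, and values of single genes with 1 library left out are open to the same shift. No list was tested, so the medians and counts below give no direction for a list. In the CtBP list, which holds factors that recruit CtBP, 8 of 17 tested genes were above 0 and 9 below, with a median log2 fold change of -0.04 (-0.12 to 0.02 with 1 library left out). Zfpm1, the GATA cofactor FOG1, which binds CtBP, was at 130 ± 7.95 TPM in WT against 110 ± 10.95 TPM in the mutant. Its groups did not overlap, and the log2 fold change of -0.25 (SE 0.12, limma adjusted p = 0.905) became -0.16 without MecomWT:R751W replicate 2.

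The LSD1 and CoREST list had 5 of 15 genes above 0 and 10 below, with a median of -0.03 (-0.12 to 0.06 likewise). Gfi1 and Gfi1b encode the repressors that bring LSD1 and CoREST to DNA in blood cells, and their values stood on opposite sides of 0. Gfi1 was at 2.40, 3.06 and 3.56 TPM in WT against 6.16, 6.14 and 5.32 TPM in the mutant. Every mutant library lay above every WT library, from 56 to 152 implied reads. The log2 fold change of 0.79 (SE 0.18) had a limma adjusted p of 0.279 over all rows and of 0.00685 over protein-coding rows alone. With limma-voom the adjusted p was 0.0826 over all rows and 0.0492 over protein-coding rows. Gfi1b was at 14.1, 11.2 and 9.33 TPM in WT against 9.13, 6.96 and 8.95 TPM in the mutant. All mutant values lay under the WT values, but by little. Its log2 fold change of -0.41 (SE 0.18, limma adjusted p = 0.797) became -0.27 without WT replicate 1.

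Among the H3K9 methyltransferase subunits and readers, 12 of 17 were above 0 and 5 below, with a median of 0.02 (-0.06 to 0.11). Cbx5, the heterochromatin protein HP1 alpha that binds methylated H3K9, was at 54.6 ± 5.51 TPM in WT against 62.5 ± 2.41 TPM in the mutant, with no overlap. The mutant stood 0.20 (SE 0.13) higher on the log2 scale, and 0.12 without WT replicate 2. Uhrf1, a reader of H3K9 methylation that acts at replication forks, was at 46.6 ± 7.87 and 54.2 ± 2.76 TPM. Its log2 fold change of 0.23 (SE 0.14) ranged from 0.10 without WT replicate 2 to 0.34 without WT replicate 3. Beside these values, the 14 proliferation markers were all above 0 with a median of 0.16, and their summed level was 943 to 1082 TPM in WT against 1091 to 1180 TPM in the mutant. Limma called 0 of the 14, and their part in the values of Cbx5 and Uhrf1 was not tested. The H3K9 demethylases had 2 of 9 above 0 and 7 below, with a median of -0.09 that was 0.01 without WT replicate 1 and -0.18 without WT replicate 2. Kdm4b, which acts on trimethylated H3K9, stood at -0.27 (SE 0.15) and Kdm7a at -0.27 (SE 0.18), the latter at -0.13 without MecomWT:R751W replicate 2.

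The deacetylase complexes lay near the median of all genes. In the NuRD list 10 of 12 genes were above 0 and 2 below, with a median of 0.07 and a range of -0.05 to 0.10, where 49.0% of all genes were above 0. Leaving out WT replicate 2 gave -0.01 (all genes -0.065), whereas leaving out MecomWT:R751W replicate 2 gave 0.13 (all genes 0.053). Gatad2a (0.10, SE 0.13) and Mta2 (0.09, SE 0.13), both NuRD subunits, had the smallest unadjusted p. In the Sin3 list 6 of 16 were above 0, with a median of -0.01 (-0.09 to 0.02). Ing2, the Sin3 subunit that reads methylated H3K4, was at 32.3, 22.4 and 20.7 TPM in WT against 22.1, 14.9 and 15.02 TPM in the mutant. WT replicate 1 was far above the others, and the log2 fold change of -0.51 (SE 0.19) became -0.32 without it. Sap30, which links Sin3 to its deacetylases, stood at 0.13 (SE 0.13), and at 0.07 without WT replicate 2.

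In the NCoR and SMRT list 4 of 6 genes were above 0, with a median of 0.04 (-0.04 to 0.14). Hdac3, the catalytic subunit of that complex, was at 24.1 ± 1.80 TPM in WT against 27.5 ± 3.80 TPM in the mutant. Its log2 fold change of 0.18 (SE 0.14) became 0.07 without MecomWT:R751W replicate 3. Tbl1x, a WD40 repeat subunit of the same complex, stood at 0.14 (SE 0.15). Of the other deacetylases and sirtuins, 6 of 16 were above 0 and 10 below, with a median of -0.05 (-0.17 to 0.04). Hdac11, a deacetylase that stands in a class of its own, was at 7.77 ± 0.703 TPM in WT against 5.50 ± 1.19 TPM in the mutant, with no overlap, and its log2 fold change of -0.45 (SE 0.18) became -0.30 without MecomWT:R751W replicate 2. Sirt6, a nuclear deacetylase, was at 2.85 ± 0.548 and 3.81 ± 0.287 TPM, also without overlap, and its 0.33 (SE 0.18) became 0.21 without WT replicate 3. Hdac8, a paralog of Hdac1 and Hdac2, was at 6.02 ± 0.896 and 5.88 ± 0.406 TPM.

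The list of ETO2 and its stem cell complex had 4 of 16 genes above 0 and 12 below, with a median of -0.04 (-0.10 to 0.05). Lyl1, a relative of TAL1, stood at -0.17 (SE 0.14), and between -0.11 and -0.29 when 1 library was left out. Among other reported partners of MECOM, 8 of 16 were above 0 and 8 below, with a median of -0.01 (-0.07 to 0.09). Spi1, which encodes PU.1, stood at -0.28 (SE 0.17), and between -0.14 and -0.44 when 1 library was left out. Ezh2, the H3K27 methyltransferase, was at 63.9 ± 4.52 TPM in WT against 71.6 ± 5.22 TPM in the mutant, a log2 fold change of 0.16 (SE 0.12).

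**Figure D5:**
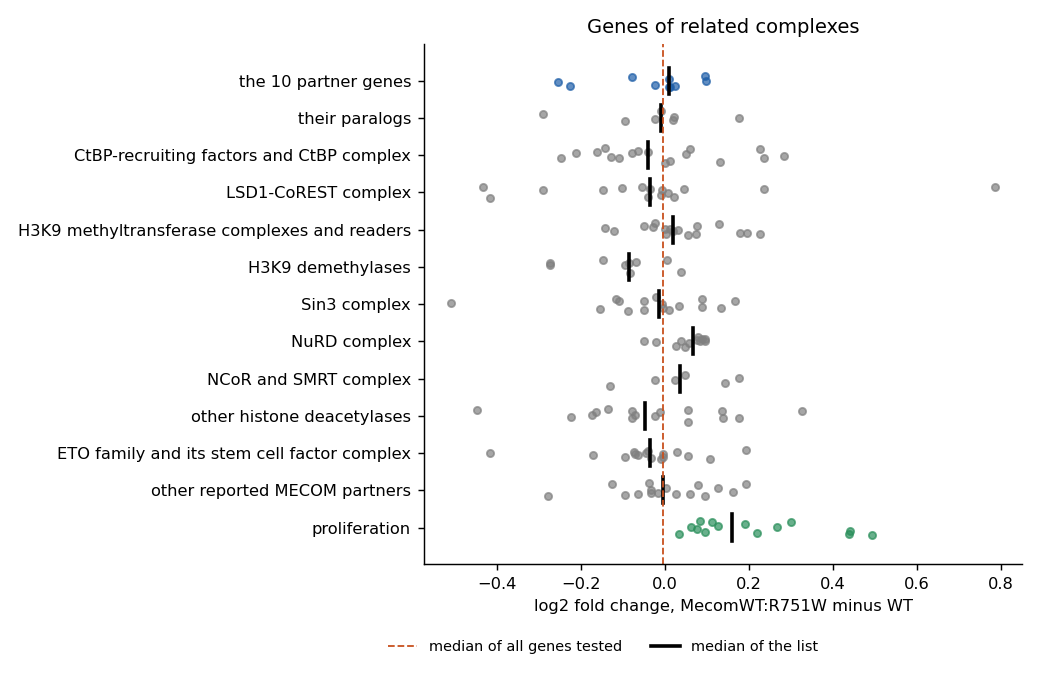
Log2 fold change of MecomWT:R751W over WT (x axis) for each tested gene of the 10 partner genes, their paralogs, 10 lists of related genes and the proliferation markers, 1 point a gene, with a black bar at the median of each list and a dashed line at the median of all genes (-0.0037). The medians of the partner lists lie between -0.09 and 0.07, and all 14 proliferation markers lie above 0.

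Some rows also share their place with another gene of the table. Kdm1a overlaps Luzp1 on the opposite strand over 4241 bases, Rcor1 overlaps Gm46379 over 265 bases and Cbfa2t3 overlaps the antisense gene Gm10612 over 1250 bases. The strand setting of the counting could not be taken from the sources used here, so reads of these overlaps cannot be told apart. Kdm1b shares 505 identical bases with a transcript of its neighbour Dek, whose row stood at 174 TPM, which makes the Kdm1b value uncertain.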

How the data were processed

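RNA-seq was made from SLAM-LSK cells of 3 WT and 3 MecomWT:R751W samples. Several library kits are listed by input in the labels' protocols, and the sources used here do not say which of them was used. A single table with TPM of 18465 genes was deposited by the authors. Per the submitters' processing notes the build was mm10 and DESeq2 was among the tools, with no role given. For aligner, counting tool and its handling of strand and of reads with several matches, the sources used here give nothing.

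Genotypes were compared with limma 3.58.1 (R 4.3.3), fitted to log2(TPM + 1) with genotype alone and a trend of variance with mean, over the 16655 genes that averaged 1 TPM or more. Two-sided p-values were adjusted by Benjamini-Hochberg over all of them, with a threshold of 0.05. Fold changes on this scale understate those of low genes. Ratios of paralogs were tested by exact permutation over libraries. Whole reads were recovered from ratios of TPM within a gene (within 0.001 reads for 100% of genes). The length that each gene was divided by followed from them. The reads are the smallest whole numbers with these ratios. Reads that share a factor in all libraries, and their length, would come out too low, which the tolerance cannot show. The procedure and the fit were tested on simulated data. Copies were searched with blastn 2.17.0 in GENCODE M21 transcripts, at 90% identity or more over at least 300 bases, and the Hdac1 copy was aligned with Biopython 1.88. Gene coordinates are those of RefSeq GRCm38.p6, which all 18465 symbols matched. The other tools were Python 3.11.15, numpy 2.4.6, pandas 2.3.3, scipy 1.17.1 and matplotlib 3.10.9.

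The 10 genes, their 8 paralogs, the 10 lists of related genes and the 10 marker lists were chosen with earlier results of these data known. Named were the 10 genes, the paralogs and Mecom whatever their values, the 2 genes of smallest unadjusted p in each list, and the 3 protein-coding genes at 5 TPM or more on average that were most correlated with the mean profile of the 10. Settings changed the pseudocount, the filter, the scaling, the rows tested, the variance estimate, the weighting of libraries and the replicate block, used the implied reads, and left out each library.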

Additional observations from a re-analysis of the deposited data

How the results depend on the processing

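In none of 21 other settings was any of the 10 partner genes called, and the median of their log2 fold changes ranged from -0.064 to 0.065 when 1 library was left out, where the median of all genes moved to -0.065 (WT replicate 2 left out) and 0.053 (MecomWT:R751W replicate 2 left out). The count of all genes called, 0 higher and 0 lower in the main setting, was 1 higher and 1 lower at a mean of at least 5 TPM, 40 and 92 over protein-coding rows, 8 and 9 with TPM rescaled to those rows, 4 and 1 with robust empirical Bayes, and 0 and 1 with weighted libraries. With limma-voom it was 24 and 26 on the implied reads, and, as settings added after the data were seen, 38 and 52 on protein-coding rows and 27 and 31 with no filter. With 1 library left out it ranged from 0 to 6 higher and from 0 to 9 lower, with 1 and 1 without WT replicate 2, 6 and 2 without WT replicate 3, and 4 and 9 without MecomWT:R751W replicate 1. The cause of these differences was not tested. Ehmt1 over Ehmt2 in WT turned from 3.98 by TPM to 0.924 by principal transcript length, since reads are then divided by other lengths. The difference of Hdac1 over Hdac2 was -0.44 to -0.27 with 1 library left out. Deviations of same-numbered replicates correlated at 0.14, 0.089 and 0.083, and those of unlike numbers at -0.086 to 0.005. As the former were not all above 0.1, the numbers were taken as names, although every library correlated best with its own number. The permutation tests thus used no pairing. With a replicate block 0 higher and 0 lower genes were called, and no call changed. The median log2 fold change of the paralogs was -0.12 without WT replicate 2, and that of the other deacetylases -0.17 without MecomWT:R751W replicate 3. Each gene's interval has its own width, from 0.835 to 1.21 for the fold of Ctbp1, and that width depends on the scaling too: the standard errors of the 10 genes were 0.124 to 0.161 in the main setting and 0.065 to 0.110 with median-ratio scaling.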

Other observations

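Of the genes in the related lists, 3 that the naming rule did not take had groups without overlap and are given as values, chosen after these were seen. Phf21b, a subunit of the LSD1 complex, was at 1.61, 1.68 and 1.33 TPM in WT against 0.732, 0.919 and 0.993 TPM in MecomWT:R751W, from 31 to 81 implied reads. Its log2 fold change of -0.43 (SE 0.19) had an unadjusted p of 0.0442 and an adjusted p of 0.812 with limma. Zfp217, a zinc finger factor that binds CtBP and CoREST, was at 10.7, 10.3 and 10.8 TPM in WT against 12.9, 11.02 and 14.2 TPM in MecomWT:R751W. Cbx3, the HP1 gamma protein, was at 38.8, 33.0 and 37.3 TPM in WT against 39.5, 40.1 and 39.6 TPM in MecomWT:R751W. Over all genes tested, 9.19% had groups without overlap. These 3 were left after the genes of smallest p were named, so their count cannot be set against that share.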
